A study of Mus musculus with 6 samples.

Results

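Fibroblasts recruit leukocytes by secreting chemokines, and 10 such genes were read here in mouse embryonic fibroblasts with and without the adaptor protein FHL2. The 10 members (Cxcl10, Ccl5, Ccl2, Ccl7, Ccl8, Cxcl1, Cxcl5, Ccl9, Ccl20 and Cxcl12) were taken by name, out of 18193 genes tested, and all 10 had a probe set annotated to that symbol alone. The knockout clones, lettered E, H and J, came from FHL2-/- mice, and the wild type clones, lettered E, F and I, from WT mice. Each group held 3 clones, every clone had become immortal spontaneously in culture, no clone carries a stated treatment, and each clone gave 1 array. The labels state neither the age of the embryos, nor the strain, nor how the Fhl2 allele was disrupted. Nor do they state whether the clones, called biological replicates there, derive from different embryos. The p-values here weigh the difference between genotypes against the variation among these clones only, and do not reach to embryos or mice.

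Chemokines are small secreted proteins that draw cells along a gradient through receptors coupled to G proteins. CC chemokines such as Ccl2 and Ccl5 mainly attract monocytes and T cells, while the CXC group divides into attractants of neutrophils (Cxcl1, Cxcl5), interferon-induced attractants of activated T cells (Cxcl10) and the homeostatic ligand Cxcl12. In fibroblasts the genes for Ccl2, Ccl7 and Cxcl1 respond to inflammatory cytokines through NF-kB, and those for Cxcl10 and Ccl5 respond in addition to interferon regulatory factors. FHL2 is built of LIM domains and binds, among other partners, subunits of AP-1.

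Promoter sequences are shown for the member with the largest fall, the member that rose and the most highly read member. RefSeq promoters (build GRCm38.p6, 250 bases before to 50 after the start of the gene) were matched for 6 of the 10 members, namely Cxcl10, Cxcl1, Cxcl12, Ccl8, Ccl9 and Ccl20; Ccl2, Ccl5, Ccl7 and Cxcl5 are named only. Capitals mark matches, on either strand, to the core of the interferon-stimulated response element (GAAANNGAA), to the AP-1 site (TGANTCA) or to the NF-kB consensus. The windows lie at chr5:92348840-92349139 on the minus strand for Cxcl10, at chr5:90890995-90891294 on the plus strand for Cxcl1 and at chr6:117168285-117168584 on the plus strand for Cxcl12.
Cxcl10: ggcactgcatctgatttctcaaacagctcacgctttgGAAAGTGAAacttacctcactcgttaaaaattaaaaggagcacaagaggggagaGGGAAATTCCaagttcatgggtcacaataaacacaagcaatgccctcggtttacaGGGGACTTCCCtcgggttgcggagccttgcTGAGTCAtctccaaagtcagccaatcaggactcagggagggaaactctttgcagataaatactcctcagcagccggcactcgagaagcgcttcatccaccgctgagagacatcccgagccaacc
Cxcl1: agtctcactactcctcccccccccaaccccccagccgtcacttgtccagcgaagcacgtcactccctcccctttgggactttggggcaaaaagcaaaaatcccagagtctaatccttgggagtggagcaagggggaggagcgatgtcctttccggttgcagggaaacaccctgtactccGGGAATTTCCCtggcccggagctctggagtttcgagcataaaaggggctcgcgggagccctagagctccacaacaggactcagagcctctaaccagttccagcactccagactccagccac
Cxcl12: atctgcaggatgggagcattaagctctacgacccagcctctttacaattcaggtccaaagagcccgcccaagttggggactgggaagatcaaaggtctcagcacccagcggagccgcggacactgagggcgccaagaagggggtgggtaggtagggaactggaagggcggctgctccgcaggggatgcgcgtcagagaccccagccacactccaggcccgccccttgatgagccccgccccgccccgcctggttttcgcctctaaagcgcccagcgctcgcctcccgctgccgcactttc

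In the Cxcl10 window the interferon element lay 213 to 205 bases before the start, 1 NF-kB match 159 to 150 bases before it, an overlapping pair of NF-kB matches between 104 and 94 bases, and the AP-1 match at 74 to 68 bases. All 3 motifs occurred together in 17 of 32851 promoters of the same length (0.0517%). The Cxcl10 window was shown for the size of its fall, and any link of this combination to that fall was not tested. The Cxcl1 window held an overlapping pair of NF-kB matches between 71 and 61 bases before the start, and neither of the other motifs. No match was found in the Cxcl12 or Ccl8 windows, whereas Ccl9 held 1 AP-1 and 1 NF-kB match and Ccl20 held 1 NF-kB match. Across all promoters of the table, 8.56% held the interferon element, 7.81% the AP-1 site and 8.46% the NF-kB consensus. These are matches of letters, and binding was not measured.

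Readings are log2 intensities, and differences are knockout minus wild type in log2 units, each with the standard error (SE) from limma fitted over all genes. A gene is said to rise, fall or change where its Benjamini-Hochberg adjusted p lay under 0.05. The median reading of an array was 4.52 to 4.54 across the knockout clones, against 4.44 to 4.46 across the wild type ones, and thus moved with genotype. With the arrays centred on their medians the 4 members that passed did so again, at -5.22 (Cxcl10), -2.93 (Ccl5), -2.28 (Ccl2) and 2.18 (Cxcl1), and no other member passed. The labelled genotype was borne out by lower readings of Fhl2 itself. It read 6.01, 6.44 and 6.57 in the knockout clones, against 9.88, 8.57 and 9.64 in the wild type clones (-3.02, SE 0.35, limma adjusted p = 0.00400). Its signal was not lost, since the knockout mean stood at percentile 54.4 of all genes and the wild type mean at percentile 90.0. The sources used here do not say whether the Fhl2 probe set lies in the deleted part. Among knockout clones, H was unlike the others: its correlation across genes was 0.964 with knockout clone E and 0.968 with knockout clone J, against 0.991 between clones E and J and 0.988 to 0.991 among wild type clones. Its correlation with the wild type clones was 0.949 to 0.953, higher than for knockout clone E (0.938 to 0.942) or knockout clone J (0.934 to 0.939). Over all genes, clone H was the knockout clone farthest from the other 2 in 48.0%. Among the 10 members it was so in 4 (Ccl2, Ccl7, Cxcl5 and Cxcl12), as clone J was in 4 others. Values without clone H are given beside Ccl2, Ccl7, Cxcl5 and Cxcl12, and beside some genes outside the members. Wild type clone E has values of 9 decimals where the other arrays have 3, and the sources do not state whether its array was processed apart.

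Of the 10 chemokines, 3 fell in knockout clones (Cxcl10, Ccl5 and Ccl2), 1 rose (Cxcl1) and 6 did not pass. Over all genes tested, 10% fell and 9.04% rose. Knockout and wild type values were free of overlap in 4 of the 10, a share close to the 38.9% found over all genes. Differences of the members ran from -5.14 to 2.25 with a median of -0.47, against a median of 0.04 over all genes. An exact two-sided permutation test over the 20 assignments of 3 clones against 3 cannot give less than p = 0.10, the value found for each of the 4 genes that passed. RNA from a whole culture was measured, in which fewer producing cells and less RNA per cell cannot be told apart.

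**Figure D1:**
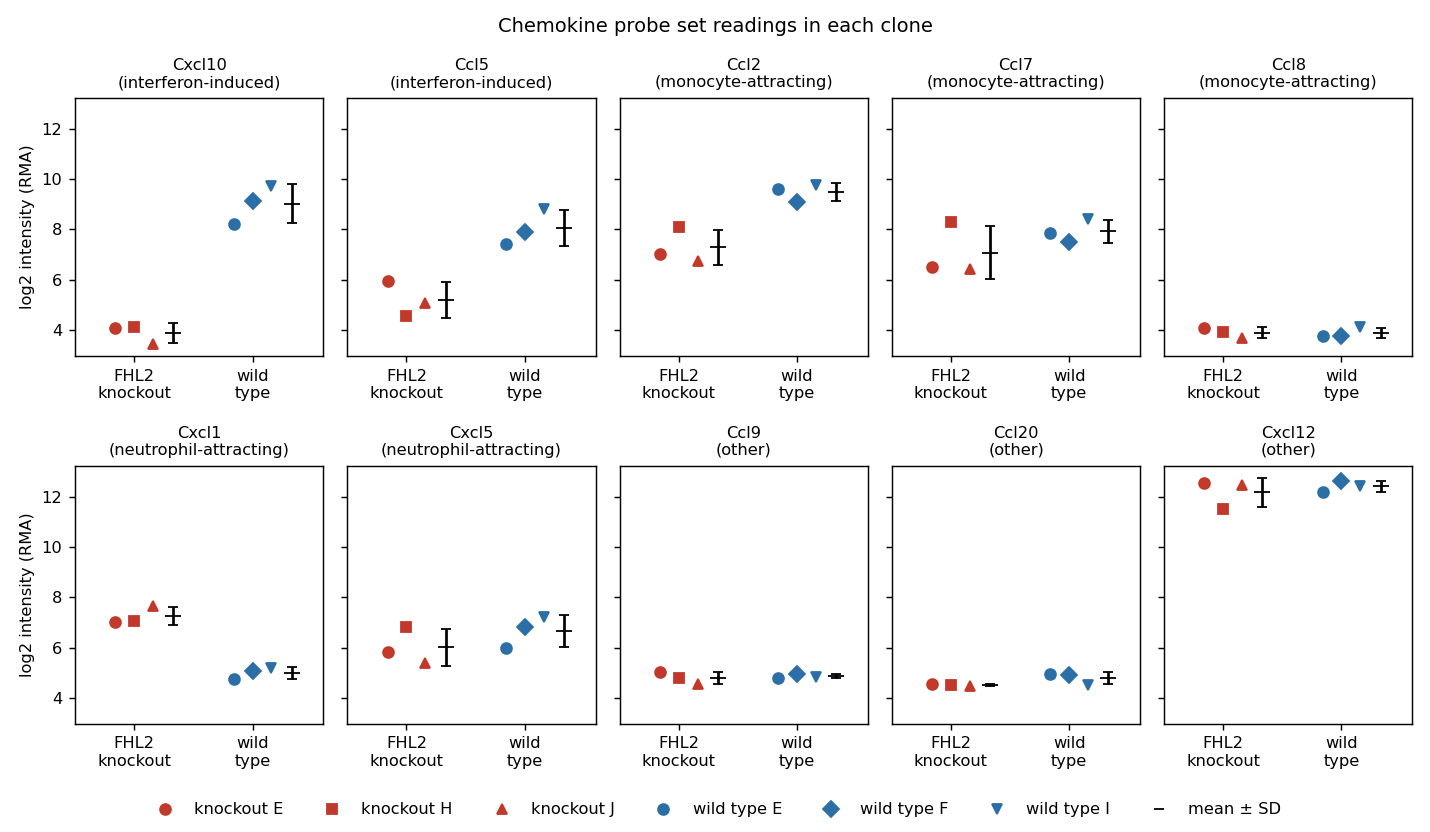
Log2 intensity (vertical axis) of the leading probe set of each of the 10 chemokines in the 3 knockout clones (left, red) and the 3 wild type clones (right, blue), with the mean and SD of each group in black. Cxcl10, Ccl5 and Ccl2 lie lower in all knockout clones and Cxcl1 lies higher in all of them; in the other 6 genes the groups overlap.

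Both interferon-induced members fell. Cxcl10, which binds CXCR3 on activated T and NK cells, read 4.1, 4.12 and 3.44 in the knockout clones (E, H and J, an order kept throughout), against 8.22, 9.12 and 9.74 in the wild type clones (in the order E, F, I). The groups lay 4.1 apart at their nearest values, more than the range within either group (0.68 and 1.51). Knockout clones averaged 3.89 ± 0.39 and wild type clones 9.03 ± 0.76 (SD, n = 3 each), a difference of -5.14 (SE 0.40, limma adjusted p = 0.00154) or 35.3-fold. Ranked among all genes, the knockout mean stood at percentile 26.7 and the wild type mean at percentile 87.1. The knockout readings lay in the low part of the scale, where background makes up more of the signal, so the fold is approximate.

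Ccl5 (RANTES), which attracts T cells and monocytes, read 5.94, 4.55 and 5.09 in the knockout clones, against 7.44, 7.89 and 8.83 in the wild type clones. The nearest values of the groups, those of knockout clone E and wild type clone E, were 1.5 apart. Means were 5.20 ± 0.70 and 8.05 ± 0.71 (SD, n = 3 each), so the difference was -2.86 (SE 0.46, limma adjusted p = 0.00986), or 7.24-fold. The spread among clones was alike in both genotypes, with ranges of 1.39 and 1.39. Against the wild type mean, the knockout clones deviated by -2.11, -3.50 and -2.96 for Ccl5, and by -4.93, -4.91 and -5.59 for Cxcl10.

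Genes closely related to Cxcl10 or next to Ccl5 gave other readings. Cxcl9, which lies 1 protein-coding gene from Cxcl10 on chromosome 5, and Cxcl11 share the receptor CXCR3 with it, and neither passed: Cxcl9 read 3.32 to 3.50 across the knockout clones, against 3.36 to 3.64 across the wild type ones, and Cxcl11 3.08 to 3.20 and 3.02 to 3.33. All of these readings are close to the floor of the arrays, below which a change would not be seen. Ccl9, the next protein-coding gene after Ccl5 on chromosome 11, differed by -0.07 (SE 0.14).

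The monocyte-attracting members Ccl2, Ccl7 and Ccl8, which encode chemokines of the MCP group and share a cluster on chromosome 11, held 1 fall. Ccl2 (MCP-1), the main ligand of CCR2 on monocytes, read 7.02, 8.08 and 6.77 in the knockout clones, against 9.63, 9.09 and 9.77 in the wild type clones. Knockout clone H was the nearest to the wild type range, at 1.01 below its lowest value. Means of 7.29 ± 0.70 and 9.50 ± 0.36 (SD, n = 3 each) gave a difference of -2.21 (SE 0.37, limma adjusted p = 0.0109), or 4.62-fold. With wild type clone E left out the call was lost (-2.14, adjusted p = 0.0507), and the difference was -2.60 without knockout clone H.

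Ccl7 (MCP-3), which attracts monocytes through CCR1, CCR2 and CCR3, read 6.50, 8.30 and 6.44 in the knockout clones, against 7.85, 7.52 and 8.43 in the wild type clones. Clones E and J lay below every wild type value, while clone H lay inside the wild type range. The difference of -0.85 did not pass (SE 0.53, 95% confidence interval -2.13 to 0.42, limma adjusted p = 0.320). Without knockout clone H it was -1.46 and passed (SE 0.26, adjusted p = 0.00848). In each knockout clone Ccl7 lay nearer to its wild type mean than Ccl2 did to its own: the deviations were -1.44, 0.37 and -1.49 for Ccl7, and -2.47, -1.41 and -2.73 for Ccl2.

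Ccl8 (MCP-2), which in the mouse is a ligand of CCR8, read 3.68 to 4.08 across the knockout clones, against 3.75 to 4.11 across the wild type ones. Both means stood low on the scale (percentiles 27.1 and 28.0), and the difference was 0.02 (95% confidence interval -0.35 to 0.40, limma adjusted p = 0.933), a sign that turned under array scaling. Ccl11 and Ccl12, which lie between Ccl7 and Ccl8 on the chromosome, averaged 2.74 and 2.49 in knockout and 2.67 and 2.43 in wild type clones. Of the genes of this cluster that were read, those for Ccl2 and Ccl7 had wild type means above the median gene mean of 5.92.

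**Figure D2:**
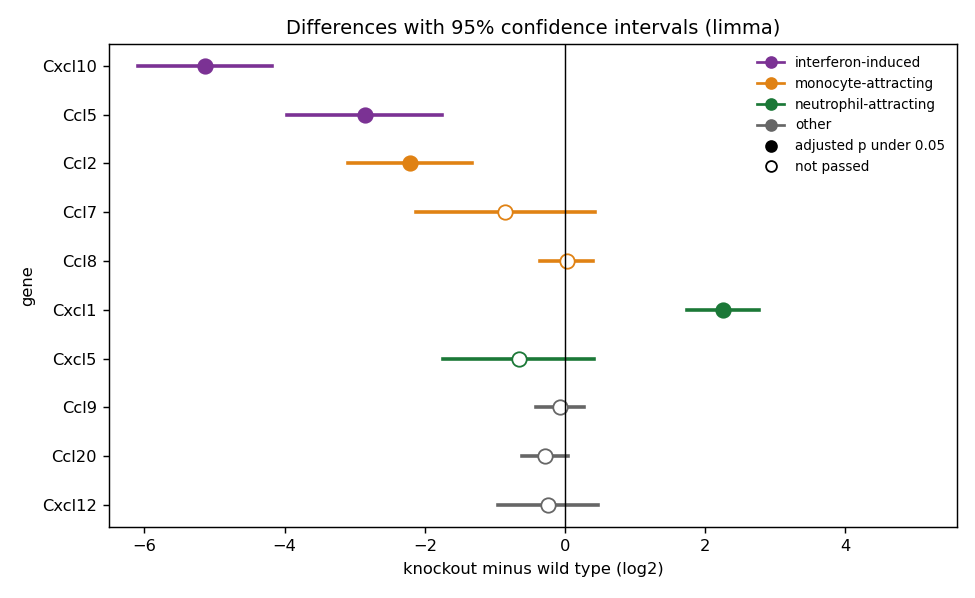
Difference of each chemokine (horizontal axis, knockout minus wild type, log2) with its 95% confidence interval from limma, grouped by class; filled circles passed at an adjusted p under 0.05 over all genes. Both interferon-induced members and Ccl2 lie below 0, Cxcl1 lies above it at 2.25, and the intervals of the other 6 genes include 0.

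The neutrophil attractants did not move alike. Cxcl1 (KC), a ligand of CXCR2, read 7.01, 7.08 and 7.67 in the knockout clones on its leading probe set, against 4.75, 5.06 and 5.19 in the wild type clones. All knockout values lay at least 1.82 above the highest wild type value. Means of 7.25 ± 0.37 and 5.0 ± 0.23 (SD, n = 3 each) gave a rise of 2.25 (SE 0.21, limma adjusted p = 0.00233), or 4.76-fold.

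Cxcl1 was the only member that passed for which several probe sets were present, and the size of its rise depended on the one read. The leading set ends in _s_at, the suffix for probes that can match more than 1 transcript, and a second in _x_at, which marks probes open to cross-hybridization. In the fit over all 45037 probe sets, where 7.49% fell and 6.46% rose, the _s_at set differed by 2.25 (SE 0.21), the _x_at set by 1.25 (SE 0.15, adjusted p = 0.00507) and the set with the plain _at suffix by 4.82 (SE 0.25, adjusted p = 4.23e-04). The plain set read 7.5, 7.70 and 8.43 in the knockout clones, against 3.16, 2.87 and 3.16 in the wild type clones. These wild type readings lie near the floor of the arrays, so 4.82 is approximate. The genotypes did not overlap on any of the 3 probe sets, and the knockout clones were higher on each.

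Cxcl5 (LIX), the other ligand of CXCR2 among the members, read 5.84, 6.81 and 5.38 in the knockout clones, against 5.98, 6.81 and 7.22 in the wild type clones. Clone H lay among the wild type values, and the difference of -0.66 did not pass (SE 0.45, 95% confidence interval -1.74 to 0.42, limma adjusted p = 0.362; -1.06 without clone H). The sign is opposite to that of Cxcl1, though the difference between the 2 genes was not tested. Cxcl2 and Cxcl3, further ligands of CXCR2 encoded close to Cxcl1 on chromosome 5, read 2.26 to 2.63 across the knockout clones, against 2.19 to 2.80 across the wild type ones, near the lower end of the scale.

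**Figure D3:**
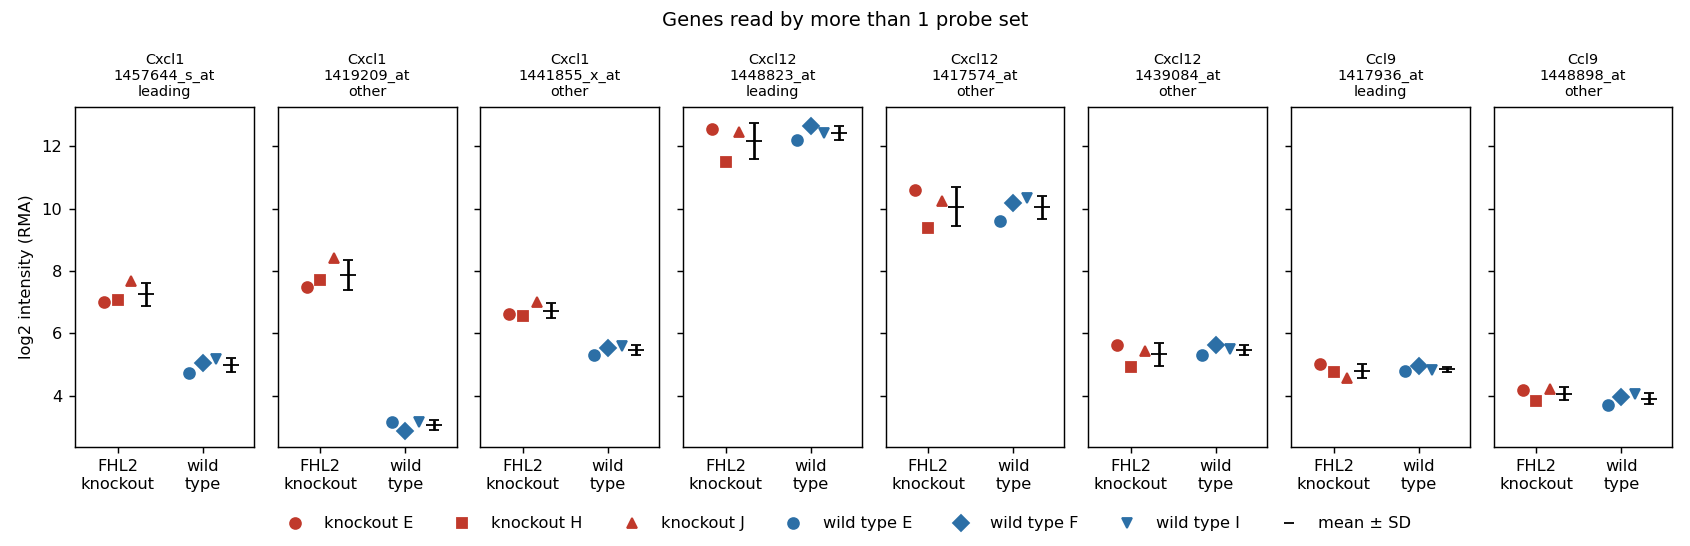
Log2 intensity (vertical axis) on every probe set of the 3 members that have more than 1, in knockout (left, red) and wild type clones (right, blue), with mean and SD in black. The 3 probe sets of Cxcl1 lie higher in all knockout clones by 2.25, 4.82 and 1.25 in turn, while the genotypes overlap on each probe set of Cxcl12 and Ccl9.

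Cxcl12 (SDF-1), the stromal ligand of CXCR4 that retains stem cells and lymphocytes in their niches, had readings near the top of the scale in both genotypes. It read 12.56, 11.51 and 12.47 in the knockout clones, against 12.20, 12.64 and 12.42 in the wild type clones, and both means stood above percentile 99.5 of all genes. Clone H was the lowest of all clones. The difference of -0.24 did not pass (SE 0.30, 95% confidence interval -0.95 to 0.47, limma adjusted p = 0.624), and it was 0.09 without clone H. Its other probe sets differed by 0.03 (SE 0.34) and -0.14 (SE 0.20), and clone H was the lowest knockout clone on each of them.

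Ccl9 and Ccl20 were read low in both groups. Ccl9, a mouse chemokine that acts through CCR1 on myeloid cells, read 4.57 to 5.03 across the knockout clones, against 4.79 to 4.95 across the wild type ones (-0.07, 95% confidence interval -0.41 to 0.27), with 0.17 (SE 0.15) on its second probe set. Ccl20, the ligand of CCR6 on Th17 cells and some dendritic cells, read 4.55, 4.53 and 4.47 in the knockout clones, against 4.95, 4.93 and 4.54 in the wild type clones. The knockout values of Ccl20 lay within a range of 0.08, and its difference of -0.29 did not pass (SE 0.14, limma adjusted p = 0.201).

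By class, then, 2 of 2 interferon-induced members fell (median -4.00) and 1 of 3 monocyte attractants fell (median -0.85). Of the neutrophil attractants 1 of 2 rose (median 0.80), while 0 of the 3 others passed (median -0.24, each with an unadjusted p above 0.05). Over all genes tested, 10% fell and 9.04% rose. The classes hold members only, so Cxcl9 and Cxcl11, which did not pass, are not counted in them. Classes of 2 or 3 genes allow no test between them. With each clone left out in turn, Cxcl10 (-5.54 to -4.79), Ccl5 (-3.23 to -2.47) and Cxcl1 (2.04 to 2.37) passed in 6 of 6 fits and Ccl2 (-2.60 to -1.94) in 5 of 6.

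**Figure D4:**
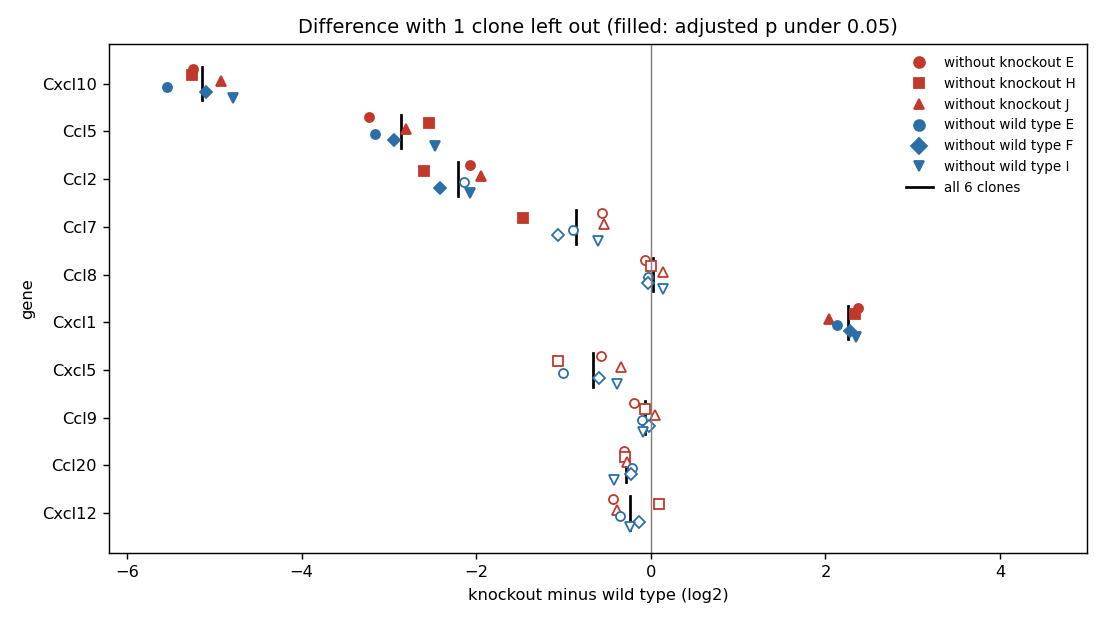
Difference of each chemokine (horizontal axis, knockout minus wild type, log2) in the 6 fits that leave out 1 clone (symbols; red for knockout, blue for wild type) and with all 6 clones (black bar); filled symbols passed at an adjusted p under 0.05. Cxcl10, Ccl5 and Cxcl1 are filled throughout, Ccl2 is open without wild type clone E, and Ccl7 is filled only without knockout clone H.

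Of 26 other chemokine genes listed, 25 were analysed, and 1 fell and 0 rose (median 0.00, range -1.49 to 1.55). The shares over all genes were 10% that fell and 9.04% that rose. The highest group mean of 23 of the 25 chemokine genes lay below the median gene mean. The one that fell was Ccl27a, a skin chemokine that binds CCR10, with 4.91, 5.04 and 5.17 in the knockout clones, against 5.48, 6.20 and 5.81 in the wild type clones (-0.79, SE 0.19, limma adjusted p = 0.0350). It is a member of a group of near-identical gene copies in the mouse, so its reading is uncertain, and it passed in 2 of the 6 fits with 1 clone left out.

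Chemokine receptors were read low in both genotypes, apart from 1 atypical receptor. Of 23 listed receptors, 21 were analysed. Among these, 1 rose and 0 fell (median difference 0.07), against 9.04% that rose and 10% that fell over all genes. Ackr3, an atypical receptor that takes up and degrades Cxcl12, read 7.44, 7.76 and 8.32 in the knockout clones, against 4.48, 4.59 and 4.34 in the wild type clones. The groups did not overlap, and Ackr3 rose by 3.37 (SE 0.23, limma adjusted p = 0.00102), a call that held whichever clone was left out. Cxcr4, the signalling receptor of the same ligand, read 2.55 to 2.68 across the knockout clones, against 2.50 to 2.60 across the wild type ones. Signalling receptors of the other members gave differences of -0.02 (Ccr1), -0.04 (Ccr2), 0.13 (Ccr3), 0.30 (Ccr6), -0.07 (Ccr8), 0.11 (Cxcr2) and 0.17 (Cxcr3), none of which passed.

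In the interferon pathway, 20 of 21 listed genes were analysed. Among these, 5 fell and 3 rose (median -0.13), against 10% that fell and 9.04% that rose over all genes. Ifih1, a cytoplasmic sensor of double-stranded RNA, read 5.09, 5.21 and 5.66 in the knockout clones, against 8.30, 8.91 and 8.78 in the wild type clones (-3.35, SE 0.22, limma adjusted p = 9.47e-04). Irf7, the factor that amplifies type I interferon production, read 5.76, 5.6 and 5.98 in the knockout clones, against 8.01, 8.60 and 8.81 in the wild type clones (-2.69, SE 0.22, limma adjusted p = 0.00172). Irf9, the DNA-binding subunit of the complex that recognises the interferon-stimulated response element, fell by 1.58 (SE 0.11, adjusted p = 0.00102).

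Other steps of that pathway moved the other way or by less. Irf3, which acts directly downstream of RNA sensing, rose by 0.76 (SE 0.10, adjusted p = 0.00528); with sets of the _x_at, _s_at and _a_at kinds removed it no longer passed (0.30, adjusted p = 0.464). Irf1 rose by 0.47 (SE 0.10, adjusted p = 0.0263) and passed in 1 of the 6 fits with a clone left out. Ifnar2, a chain of the type I interferon receptor, fell by 0.95 (SE 0.19, adjusted p = 0.0203), passed in 2 of those 6 fits and was -0.57 with probe sets averaged (adjusted p = 0.0964). Ifnb1, the gene of interferon beta, read 3.45 to 3.85 across the knockout clones, against 3.79 to 4.22 across the wild type ones and did not pass (-0.28, adjusted p = 0.300).

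Of 24 listed NF-kB pathway genes, 21 were analysed. Among these, 3 fell and 2 rose (median -0.09), against 10% that fell and 9.04% that rose over all genes. Traf2, an adaptor of TNF receptors, fell by 0.62 (SE 0.11, limma adjusted p = 0.0113) and passed in 6 of 6 fits with a clone left out. Ikbkb, a kinase that marks the NF-kB inhibitor for degradation, differed by -0.62 (adjusted p = 0.0209), the subunit Rel by -1.04 (adjusted p = 0.0235), the inhibitor Nfkbia by 0.71 (adjusted p = 0.0340) and the receptor Tlr2 by 1.95 (adjusted p = 0.0366). Each of these 4 lost its call in at least 3 of the 6 fits that leave out 1 clone, and Ikbkb was -0.22 with probe sets averaged (adjusted p = 0.119). Among those 6 fits, Nfkbia (0.86) and Tlr2 (2.545) passed only in the one without knockout clone H. Rela, the subunit that activates many chemokine genes, read 9.38 to 10.22 across the knockout clones, against 9.78 to 9.82 across the wild type ones (-0.09, adjusted p = 0.819).

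None of the 12 inducing cytokines passed over all genes with limma, where 10% of all genes fell and 9.04% rose. Their differences were above 0 in 5 and below it in 7, and 2 genes had an unadjusted p under 0.05. Il1a, Il1b and Tnf, which induce fibroblast chemokines through NF-kB, differed by 0.18, 0.27 and -0.13. Il6 read 5.12, 6.98 and 4.83 in the knockout clones, against 5.88, 6.19 and 5.95 in the wild type clones. Clone H lay above every wild type value and clones E and J below, and the difference was -0.37 (adjusted p = 0.692), or -1.03 without clone H (adjusted p = 0.00456).

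Among 8 genes that destabilise chemokine mRNA, stabilise it or trim chemokine proteins, 4 rose and 0 fell (median 0.40). The shares over all genes were 9.04% that rose and 10% that fell. Zfp36l1, an RNA-binding protein that speeds decay of mRNAs with AU-rich elements, read 10.97, 10.57 and 11 in the knockout clones, against 8.62, 8.95 and 8.94 in the wild type clones (2.0, SE 0.16, limma adjusted p = 0.00163). Its relative Zfp36 (tristetraprolin) rose by 1.98 (SE 0.52, adjusted p = 0.0433), passed in 2 of 6 fits with a clone left out and missed with a trended robust prior (adjusted p = 0.0555). The proteases Mmp9 and Mmp2, which can cleave chemokines, both rose. Mmp9 gained 0.83 (SE 0.14, adjusted p = 0.0122; 1.36 with probe sets averaged) and passed in 6 of those 6 fits, and Mmp2 gained 0.65 (SE 0.17, adjusted p = 0.0427) and passed in 1 of them. The call for Mmp2 was also lost with quantile normalization (adjusted p = 0.0571), with median centring (0.0590) and with probe sets averaged (0.0576).

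**Figure D5:**
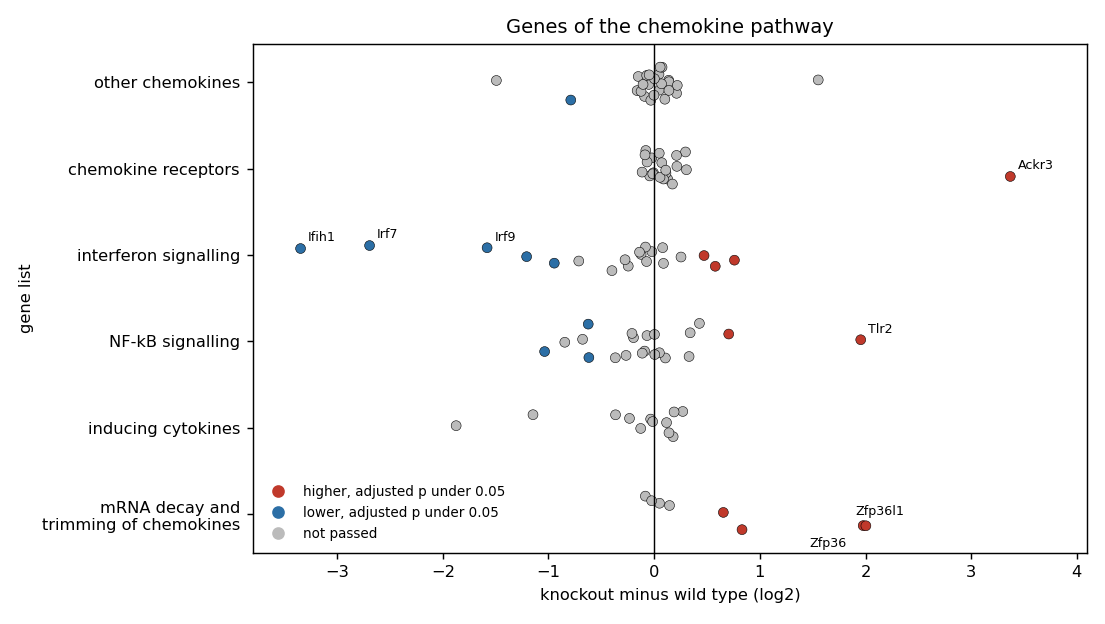
Differences (horizontal axis, knockout minus wild type, log2) of the analysed genes of 6 lists around the chemokines, 1 point per gene, coloured red where a gene rose and blue where it fell at an adjusted p under 0.05; vertical scatter within a list has no meaning. Ackr3 stands at 3.37 among receptors that lie near 0, and Ifih1, Irf7 and Irf9 are the lowest genes of the interferon list.

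Markers of the cells that could supply chemokines were read in the same arrays, in which 10% of all genes fell and 9.04% rose. Fibroblast markers were high in all clones (group means 9.83 to 13.61), although of 8 genes 1 rose (Pdgfra, 1.76) and 2 fell (Thy1, -1.34, and Pdgfrb, -0.64). With a clone left out, Pdgfra passed in 2 of 6 fits, Thy1 in 2 and Pdgfrb in 1; Col3a1 passed with probe sets averaged (1.28) and with _x_at, _s_at and _a_at sets removed (2.18). Of 10 listed leukocyte markers 9 were analysed and 0 passed with limma, though 2, Cd14 and Lyz2, had an unadjusted p under 0.05. Cd14 passed with arrays centred on their medians (-0.82), with probe sets averaged (-0.75), with array weights (-0.76) and without knockout clone E (-0.93). Lyz2 passed without knockout clone H (1.58, adjusted p = 0.0123) and with array weights (1.48). Summed levels given here add unlogged intensities and put the total on the log2 scale, so the genes read highest weigh most. For the 9 markers the sum was 8.27 to 8.65 across the knockout clones, against 8.24 to 8.49 across the wild type ones. The pan-leukocyte gene Ptprc read 2.67 to 2.80 and 2.57 to 2.83, near the lower end of the scale, though Csf1r read 6.87 to 6.98 and 6.92 to 7.35. The endothelial genes Pecam1, Cdh5 and Emcn also lay low in both genotypes, and Pecam1 passed only without knockout clone H (0.39). Tek, a receptor of endothelial cells, rose (4.27, adjusted p = 0.0378). It read 8.36, 4.68 and 8.91 in the knockout clones, against 3.27, 3.31 and 2.54 in the wild type clones. With a clone left out it passed in 1 of 6 fits, the one without knockout clone H (5.59). Summed levels of the endothelial genes were 5.72 to 9.02 across the knockout clones, against 4.91 to 5.27 across the wild type ones. Tek was the highest of these genes in every knockout clone, so the sum largely follows Tek. Of 4 epithelial markers 1 rose (Epcam, 0.43), with sums of 8.03 to 8.14 and 7.62 to 7.79. Epcam was 0.10 with probe sets averaged and passed in 1 of 6 fits with a clone left out. Krt5 passed only with probe sets averaged (0.33) and with array weights (0.35). The part of the cell markers in the chemokine differences was not tested.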

How the data were processed

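Total RNA of 6 clones was measured on Affymetrix 3' expression arrays, 1 per clone. The deposited values are log2 intensities per probe set, made by the authors with RMA per the submitters' processing notes; the RMA version was not given in the sources used here. From these values, 64 control probe sets were left out of 45101. Of the rest, 34945 carried 1 gene symbol, 932 several and 9160 none in the platform annotation, and each gene was read from whichever of its probe sets averaged highest across the 6 arrays. Genotypes were compared by lmFit and eBayes of limma 3.58.1 (R 4.3.3), genotype being the only term, with Benjamini-Hochberg adjustment over 18193 genes, or over 45037 probe sets where stated. The fit was tested on simulated data. The number of arrays limits the precision (median SE over genes 0.14, 4 residual degrees of freedom). Motifs were searched with Python 3.11.15. The members and gene lists were chosen with earlier results of these data known. Genes named are the members, their receptors, Fhl2, selected regulators and, per pathway list, up to 5 genes that passed with the smallest p; cell markers were listed whole. Alternatives were other scalings, filters, probe set rules, priors, array weights, a 2-fold minimum and each clone left out. Protein sequences were not used here.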

Additional observations from a re-analysis of the deposited data

How the results depend on the processing

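Of 14 alternatives, calls held in 14 for Cxcl10, Ccl5 and Cxcl1 and in 13 for Ccl2, whose call went when wild type clone E was left out (-2.14, adjusted p = 0.0507). Ccl7 passed only without knockout clone H (-1.46, adjusted p = 0.00848), while Cxcl5 and Cxcl12 passed in 0 of 14, and Ccl8, Ccl9 and Ccl20 in 0 of 13, since the filter on low means removes them. Over all genes 3464 were called, against 6280 with every probe set tested, 1495 with a 2-fold minimum, and 1661 (without wild type clone E) to 4750 (without knockout clone H) with 1 clone left out, and 4926 with array weights. The first counts more features and the second adds a criterion; the cause of the others was not tested. Signs turned only in members that did not pass. For Ccl8 the difference was -0.0407 with quantile normalization, -0.0522 with median centring, -0.0109 with array weights and -0.0656 to 0.140 with a clone left out. For Ccl9 it was 0.0481 with probe sets averaged and -0.188 to 0.0421 with a clone left out, and for Cxcl12 -0.432 to 0.0938 with a clone left out; the cause was not tested. No paired analysis was possible because the labels pair no knockout clone with a wild type clone. The letter E occurs in both groups, and whether it marks a shared origin is not stated. Low readings limit what can be seen of Ccl8, Ccl9 and Ccl20.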

Other observations

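Some chemokine and cytokine genes outside the members were chosen after their values were seen, because single clones set them. Cxcl14, a chemokine of skin and stroma, read 5.38, 3.56 and 6.63 in the knockout clones, against 3.54, 3.57 and 3.81 in the wild type clones. Clone H lay within the wild type range; the difference was 1.55 (limma adjusted p = 0.186), and 2.37 without clone H (adjusted p = 0.00435). Tgfb1 read 5.50, 8.14 and 5.95 in the knockout clones, against 8.26, 8.58 and 8.38 in the wild type clones (-1.87, adjusted p = 0.0978; -2.68 without clone H, adjusted p = 3.34e-04). Ppbp, a platelet chemokine encoded next to Cxcl5, read 3.72, 4.06 and 3.83 in the knockout clones, against 4.25, 4.55 and 7.29 in the wild type clones, where clone I alone was high (-1.49, adjusted p = 0.234).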
